A study of Bos taurus with 12 samples.

Results

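The enzymes of the mitochondrial β-oxidation spiral were followed in mammary gland (MG) biopsies of cows that were freely fed or underfed, all of them challenged with lipopolysaccharide (LPS). The 10 genes were taken by symbol: ACADVL, ACADL, ACADM and ACADS for the acyl-CoA dehydrogenases, HADHA and HADHB for the trifunctional protein, ECHS1, HADH and ACAA2 for the soluble matrix enzymes, and ETFDH for the electron exit. An array probe was assigned to one of them when its RefSeq accession, taken without the version, belonged to that symbol in the bovine RefSeq table. This gave 28 of the 43653 probes, and 10 of the 12639 genes that could be named. The rule itself uses no measured value of the probes, although it was set with earlier results of these data known.

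Multiparous Holstein cows at 24 ± 3 days in milk kept free access to a lactation diet (CONT, n = 6) or received for 4 days a ration in which barley straw made up 48% of the dry matter (REST, n = 6). On day 3, every cow of both groups was given 50 µg of LPS, the outer membrane component of Gram-negative bacteria, in 1 healthy rear gland, and the biopsy followed 24 h later. The comparison is therefore between diets in challenged animals, there are no cows without LPS among the arrays, and the biopsied gland is not named in the sources used here. RNA of each cow was hybridized to its own one-color Agilent bovine array, and the cows kept for the arrays were those whose RNA passed the quality control.

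Long-chain fatty acids (FA) are activated to acyl-CoA, carried into the mitochondrion as carnitine esters, and then shortened by a repeated cycle of 4 reactions. An acyl-CoA dehydrogenase introduces a double bond, a hydratase adds water, a hydroxyacyl-CoA dehydrogenase oxidizes the hydroxyl group, and a thiolase splits off acetyl-CoA. Electrons taken up in the first reaction pass through electron transfer flavoprotein and ETFDH to ubiquinone. In the lactating udder of ruminants, FA are taken up from plasma and also made from acetate, and most of them are esterified into milk fat, while underfeeding in early lactation raises the supply of FA mobilized from adipose tissue.

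Levels are given as log2 intensity minus the log2 of the array's 75th percentile, so that 0 marks a probe as bright as that percentile, and a log2 fold change (log2 FC) is the REST mean minus the CONT mean. Intensity depends on each probe's own hybridization, and levels are therefore compared between cows and never between probes. The brightest probe, that with the highest mean over the 12 arrays, stands for the gene, and the other probes are given beside it. The 75th percentile lay between 577.1 and 1184 intensity units in CONT and between 386.9 and 1082 in REST, and Feature Extraction called 57.57 to 78.13% of the probes of an array well above background. The arrays came from 3 slides, with 3 CONT and 1 REST cows on slide 1, 1 CONT and 3 REST cows on slide 2, and 2 of each on slide 3. The intensity of the negative controls was 7.066 to 17.3 on slide 1 and 3.444 to 4.979 on the other slides. Of the 28 probes, 24 had this call on each of the 12 arrays, including the brightest probe of each of the 10 genes, and 1 ETFDH probe had it on none. As biopsies are bulk tissue, fewer cells of a type and less RNA per cell cannot be told apart.

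None of the 10 enzymes differed between diets beyond the spread among cows after adjustment. With limma and Benjamini-Hochberg adjustment over all probes, the adjusted p was 1 for each of the 28 probes, and 0 of the 43653 probes were called (0%), while 1143 probes (2.62%) had an unadjusted p under 0.05. None of the 10 brightest probes had an unadjusted p under 0.05 (2.64% of all named genes). The mean was higher in REST for 9 of the 10 brightest probes, against 43.5% of all named genes, but for 8 under quantile normalization, 7 with the 50th percentile as the scale, 7 after normexp background correction and 8 with slide as a block. The log2 FC of the 10 ranged from -0.093 to 0.40 with a median of 0.12, where the median over all named genes was -0.034 and their median standard error (SE) was 0.25. On this scale 26 of the 28 probes had a higher mean in REST (46.1% of all probes), 1 of them the ETFDH probe at background, and both exceptions were the HADH probes. These counts carry no test, as the enzymes were measured in the same cows. They also depended on single slides and cows, with 5 of 10 higher and a median of 0.018 when the arrays of slide 1 were left out. With 1 cow left out, the count ran from 6 (without REST cow 1018) to 10 (without CONT cow 1076). The median then ran from 0.039 (without REST cow 1058) to 0.19 (without REST cow 0049).

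**Figure D1:**
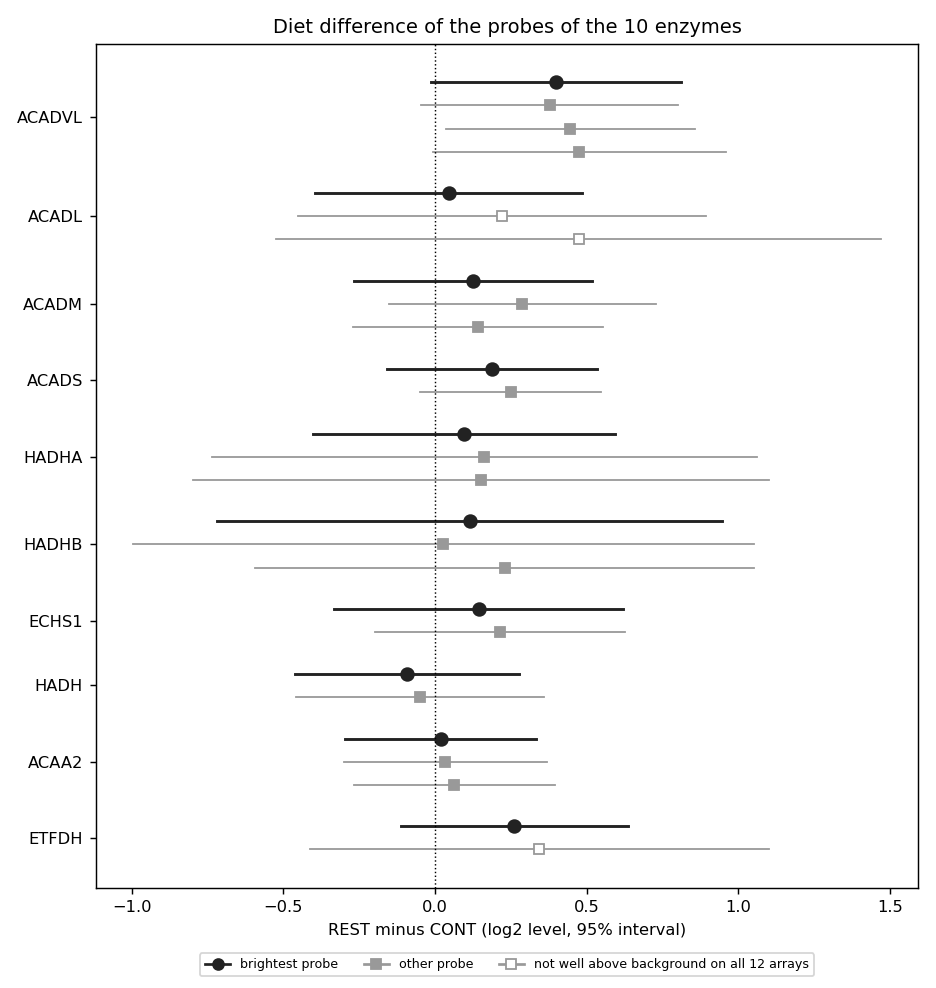
Difference between REST and CONT in log2 level for each probe of the 10 enzymes, with its 95% interval from limma (n = 6 cows per diet). Black circles are the brightest probe of each gene, and open symbols are probes not well above background on all 12 arrays, without the ETFDH probe that was so on none. The interval of 1 ACADVL probe lies above 0, those of the other probes include 0, and the intervals of HADHB and of 2 HADHA probes are wide.

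ACADVL encodes very long-chain acyl-CoA dehydrogenase, the membrane-bound enzyme that takes the longest acyl chains in the first reaction. Its brightest probe (NM_174494) ran from 3.92 through a median of 4.03 to 4.24 in CONT, and from 4.08 through 4.33 to 5.18 in REST. The CONT cows lay close together, whereas the REST cows spread upward: all 6 exceeded the CONT mean, 4 exceeded every CONT cow, and the groups overlapped. Of these 4, REST cow 0078 did so barely (4.2445, beside 4.235 in CONT cow 0055). The highest value was that of REST cow 1058, followed by REST cow 7043 at 4.63 and REST cow 1018 at 4.42. REST cows 1015 (4.08) and 0049 (4.11) lay within the CONT range. With 6 cows per diet, the CONT mean was 4.05 ± 0.11 (SD) and the REST mean 4.45 ± 0.42 (SD), which is a log2 FC of 0.40 (SE 0.19, 1.32-fold) with a 95% interval from -0.013 to 0.81 (limma, unadjusted p = 0.0567, adjusted p = 1). Permuting the cows in an exact, two-sided test gave a p of 0.0173, which is not adjusted for the other genes, and the smallest p this design allows is 0.00216.

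The 3 other ACADVL probes gave 0.38, 0.45 and 0.48, so that the 4 probes pointed the same way and differed by less than their SE of 0.19 to 0.22. Across cows they followed each other, with pairwise r from 0.754 to 0.959 after the diet means were taken out. The probe at 0.45 had the lowest unadjusted p among the 28 (p = 0.0355, limma adjusted p = 1; exact permutation p = 0.0281). In the brightest probe the difference was 0.19 on slide 1, 0.22 on slide 2 and 0.78 on slide 3, and it was 0.43 with slide as a block. Leaving out 1 cow moved it between 0.25 (without REST cow 1058) and 0.47 (without REST cow 1015).

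ACADL, long-chain acyl-CoA dehydrogenase, gave a dim signal on this array. The brightest probe (NM_001076936) ran from -3.35 through -3.12 to -2.77 in CONT and from -3.58 through -3.07 to -2.37 in REST. REST cows held both the lowest value, in cow 7043, and the highest, in cow 1018. REST differed from CONT by a log2 FC of 0.045 (SE 0.20, 95% interval -0.39 to 0.48), whose sign turned under quantile normalization, the 50th percentile scale and normexp and without REST cow 1018 (-0.094). The other probes, with log2 FC of 0.22 and 0.47, were well above background on 5 and 2 of 6 arrays per diet.

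ACADM, medium-chain acyl-CoA dehydrogenase, lay between 1.87 and 2.5 in CONT (median 2.12) and between 1.84 and 2.70 in REST (median 2.30) for its brightest probe (NM_001075235). The ranges overlapped, and REST cow 1058 alone exceeded every CONT cow. This gave a log2 FC of 0.12 (SE 0.18, 95% interval -0.27 to 0.52), and it was 0.29 and 0.14 for the other probes. It was 0.032 without REST cow 1058, 0.0745 without CONT cow 0055 and 0.21 without REST cow 1018.

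ACADS, short-chain acyl-CoA dehydrogenase, completes the series of chain lengths. In its brightest probe (NM_001034401) CONT ran from 2.08 through 2.25 to 2.84 and REST from 2.39 through 2.47 to 2.82. No REST cow exceeded CONT cow 1076, yet 4 of the 6 CONT cows lay below every REST cow. The log2 FC was 0.19 (SE 0.16, 95% interval -0.16 to 0.53), and the difference was -0.096 on slide 1, 0.40 on slide 2 and 0.42 on slide 3. It was 0.29 without CONT cow 1076 and 0.13 without REST cow 1058. The second ACADS probe gave 0.25 (SE 0.14, limma unadjusted p = 0.0939, adjusted p = 1; exact permutation p = 0.0368), with 4 of 6 REST cows above every CONT cow, and its r with the brightest probe across cows was 0.414. Its SD within diets of 0.164 was at percentile 7.38 of the genes measured on all arrays.

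**Figure D2:**
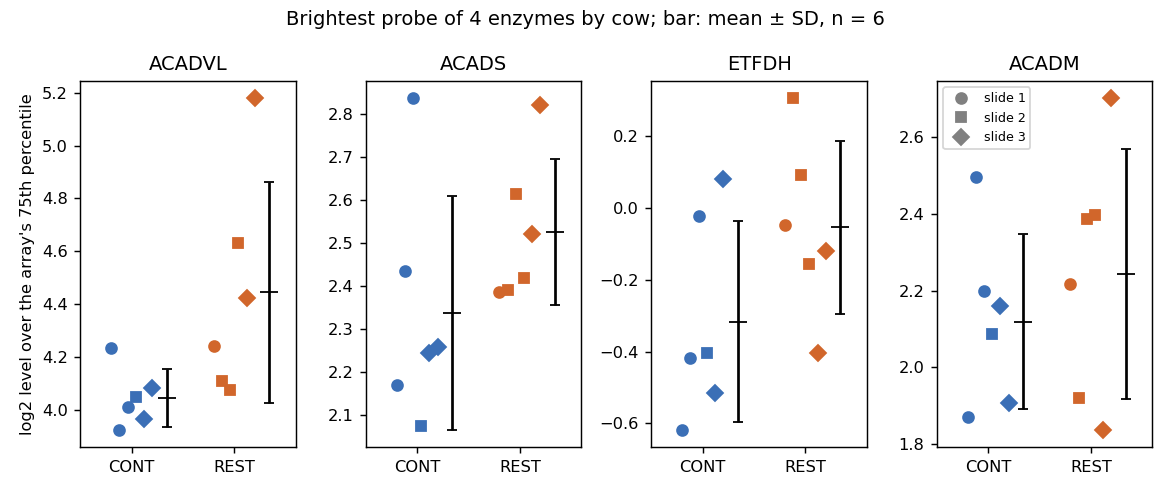
Log2 level over the array's 75th percentile of the brightest ACADVL, ACADS, ETFDH and ACADM probes in each cow, by diet, with the slide as the symbol and bars for mean ± SD (n = 6). For ACADVL, 4 of 6 REST cows lie above every CONT cow, REST cow 0078 barely, and for ACADM 1 of 6 does. Each panel has its own axis, which does not start at 0.

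HADHA and HADHB encode the α and β subunits of the trifunctional protein, the inner membrane complex that carries out the hydratase, hydroxyacyl-CoA dehydrogenase and thiolase steps on long chains. The brightest HADHA probe (NM_174335) ran from 1.47 through 1.54 to 2.29 in CONT and from 1.19 through 1.85 to 2.34 in REST. The brightest HADHB probe (NM_174336) ran from -1.23 through -0.43 to 0.67 in CONT and from -1.39 through 0.15 to 0.57 in REST. HADHB thus spread widely within both diets, whereas on the brightest HADHA probe 5 of the 6 CONT cows lay between 1.47 and 1.61, with CONT cow 8027 apart at 2.29. The groups overlapped for both genes. The log2 FC was 0.096 (SE 0.23, 95% interval -0.40 to 0.59) for HADHA and 0.12 (SE 0.38, 95% interval -0.72 to 0.95) for HADHB. For HADHB the interval leaves room for a 1.93-fold higher or, at its other end, a 0.609-fold level in REST. The sign differed between slides, with HADHB at 0.61 on slide 1, -0.68 on slide 2 and 0.65 on slide 3, and HADHA at 0.46, -0.14 and 0.26. Both signs turned without REST cow 1018 (-0.021 for HADHA and -0.044 for HADHB), and HADHB was -0.062 without CONT cow 0015 and 0.35 without REST cow 0049.

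The wide spread of these subunits was seen with all but 1 of their probes. The SD within diets was 0.715, 0.892 and 0.706 for the 3 HADHB probes and 0.393, 0.776 and 0.824 for the 3 HADHA probes, where the median over 9000 genes well above background with complete values was 0.334. HADHB probes thus stood at percentiles 88 to 94, and the HADHA probes at 60.4, 91 and 92.6. The 3 probes of HADHA correlated with each other at r of 0.881 to 0.979 and those of HADHB at 0.912 to 0.971, after the diet means were taken out.

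Levels of the subunits were correlated across cows. The 9 pairs of a HADHA and a HADHB probe gave r from 0.792 to 0.985. For the brightest probes, Pearson's r was 0.859 and Spearman's rho 0.839 over the 12 cows after the diet means were taken out (permutation p = 0.00323 and 0.00808, within diets). Adjusted over the 45 pairs of enzymes that were compared, these were 0.145 and 0.31, above the threshold of 0.05, as for each of the other pairs. The r was 0.735 within CONT, 0.929 within REST, 0.956 when slide was taken out too, and 0.76 without the cows farthest from the median HADHA level (CONT 8027 and REST 1018). On these probes the relation within CONT rested on cow 8027, since among the other CONT cows HADHA was almost constant and cow 0015, with the lowest HADHB (-1.23), had the highest HADHA (1.61). Without cow 8027, a step chosen after the values were seen, r over the remaining 11 cows was 0.809 and rho 0.6 for the brightest probes, and r was 0.718 to 0.982 over the 9 pairs of probes. CONT cow 8027 and REST cow 1018 were high for all 6 probes, and REST cows 0049 and 1015 were low for all 6. Summed tissue markers of these cows were read beside them. The summed level of 8 epithelial and milk genes, in multiples of the 75th percentile, was lowest of all in CONT cow 8027 (1560), 2101 in REST cow 0078 and 2277 in REST cow 1018, and it was highest in REST cows 0049 (5891) and 1015 (4742) and in CONT cow 0015 (4366), which was low for HADHB. This sum is carried by the brightest milk genes, and on the mean log2 level of the same 8 genes REST cow 0049 (7.25) lay below REST cow 7043 (7.58), CONT cow 0055 (7.39), REST cow 1015 (7.38) and CONT cow 0015 (7.31). The summed level of 7 adipocyte genes was 11.74 in CONT cow 8027 and 102.7 in REST cow 1018, the lowest of each diet, against 372.3, 276.4 and 286.2 in REST cows 0049 and 1015 and CONT cow 0015. FABP4 and LPL carried this sum, and only 3 of the 7 genes were well above background on all 12 arrays. On the mean log2 level of the 7 genes, CONT cow 8027 (-2.16) and REST cow 1018 (-1.90) were again the lowest of each diet. For 6 endothelial genes the cows high in both subunits lay at opposite ends, with the lowest sum in CONT cow 8027 (4.949) and the highest in REST cow 1018 (24.99). For 8 fibroblast genes REST cows 0049 and 1015 had the lowest sums (24.64 and 33), CONT cow 8027 had 69.09 and REST cow 1018 had 54.28. These marker values were compared after the cows were seen to stand apart, and their part in the spread of the subunits was not tested. HADHA and HADHB are neighbours in the bovine genome, with no gene between them in the RefSeq table (assembly ARS-UCD2.0). Whether this bears on their correlation was not tested.

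ECHS1, the short-chain enoyl-CoA hydratase of the matrix, ran from 3.55 through 4.07 to 4.78 in CONT and from 3.69 through 4.25 to 4.55 in REST for its brightest probe (NM_001025206). CONT cows held both extremes. Between diets the log2 FC was 0.14 (SE 0.22, 95% interval -0.33 to 0.62), 0.21 for the second probe, and -0.0066 with slide as a block. Single CONT cows moved it, to 0.038 without cow 0055 and 0.28 without cow 0015. Within slides it was 0.30 on slide 1, 0.46 on slide 2 and -0.59 on slide 3. Both probes of ECHS1 followed each other closely (r = 0.969). Across cows ECHS1 had its lowest r with HADHB (r = -0.565, rho = -0.476, permutation p = 0.0607 and 0.139, adjusted p = 0.455 and 0.466 over 45 pairs), which moved to -0.223 without REST cow 0049 and CONT cow 0015. Those cows had high ECHS1 and low HADHB, and REST cow 1018 the reverse.

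**Figure D3:**
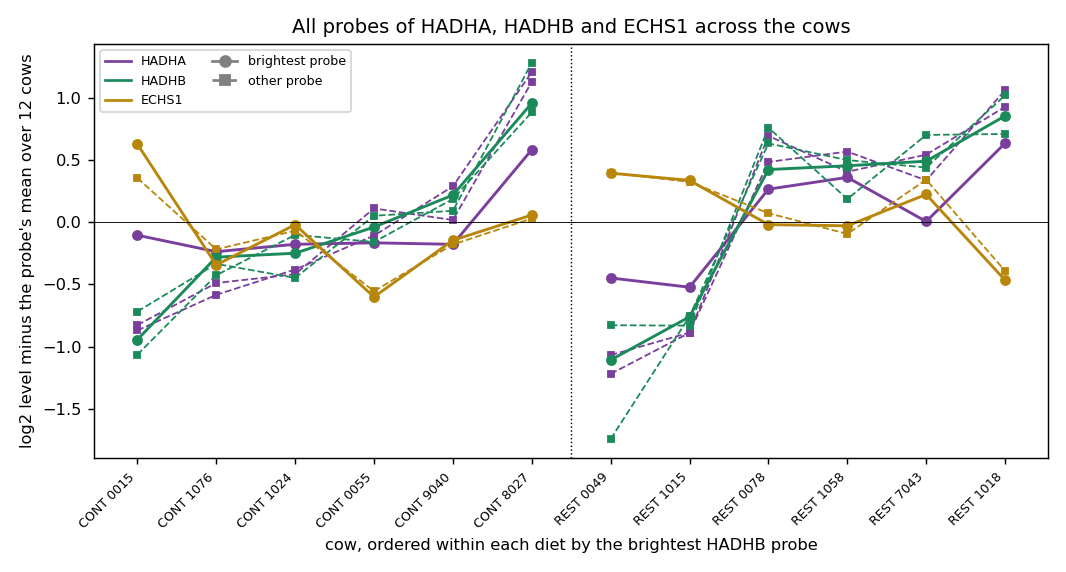
Log2 level of each probe of HADHA (3), HADHB (3) and ECHS1 (2) minus that probe's mean over the 12 cows, with cows ordered within each diet by the brightest HADHB probe. Lines join values of 1 probe for reading across cows. The extremes, such as CONT 8027 and REST 1018 above and REST 0049 and 1015 below, are shared by the 6 HADHA and HADHB probes, but the brightest HADHA probe is nearly flat over the other CONT cows.

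HADH, the short- and medium-chain hydroxyacyl-CoA dehydrogenase, was the gene whose probes both had a lower mean in REST. The brightest probe (NM_001046334) ran from 1.11 through 1.36 to 1.86 in CONT and from 0.99 through 1.35 to 1.49 in REST. The medians were almost equal, and CONT cow 1076 held the highest value. Between diets the log2 FC was -0.093 (SE 0.17, 95% interval -0.46 to 0.28), -0.050 for the second probe, and 0.00072 without CONT cow 1076.

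ACAA2, the mitochondrial 3-ketoacyl-CoA thiolase of the matrix, had the smallest spread within diets among the 10 brightest probes. Its brightest probe (NM_001035342) ran from 2.90 through 3.18 to 3.30 in CONT and from 2.85 through 3.19 to 3.47 in REST, with an SD within diets of 0.188 (percentile 12.9 of the genes). The REST cows enclosed the CONT range. The log2 FC was 0.018 (SE 0.15), and 0.034 and 0.063 for the other probes, but -0.038 with the 50th percentile as the scale and -0.012 after normexp. Its 95% interval, from -0.30 to 0.33, corresponds to a ratio of REST to CONT between 0.814 and 1.26.

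ETFDH encodes the iron-sulfur flavoprotein that hands electrons from electron transfer flavoprotein to ubiquinone. The brightest probe (NM_001077130) ran from -0.62 through -0.41 to 0.081 in CONT and from -0.40 through -0.083 to 0.31 in REST. Of the REST cows, 5 lay above the CONT mean and 2 above every CONT cow, while 4 CONT cows lay below every REST cow, 1 of them barely. The log2 FC was 0.26 (SE 0.17, 95% interval -0.11 to 0.64; limma adjusted p = 1, exact permutation p = 0.119), which made it the second in size of the 10 enzymes after ACADVL. It was 0.31 on slide 1, 0.48 on slide 2 and -0.044 on slide 3. The second probe gave 0.34 and exceeded background clearly in 4 CONT and 5 REST cows, with an r of 0.309 to the brightest probe across cows, and the third did so in no cow and is given no fold.

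Within single cows the enzymes did not move as 1 block. Over the 45 pairs of brightest probes, r ranged from -0.565 to 0.859 with a median of 0.105, and 25 pairs lay above 0 and 20 below. REST cow 1058 was above the gene's 12-cow mean for 9 of the 10 enzymes and REST cow 7043 for 8, whereas REST cows 0049 and 1015 were so for 3 and 4. Among CONT cows the number ran from 1 in cow 0055 to 7 in cow 8027. The mean over the 10 brightest probes lay between 1.34 and 1.76 in CONT and between 1.42 and 1.89 in REST, and the groups overlapped.

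**Figure D4:**
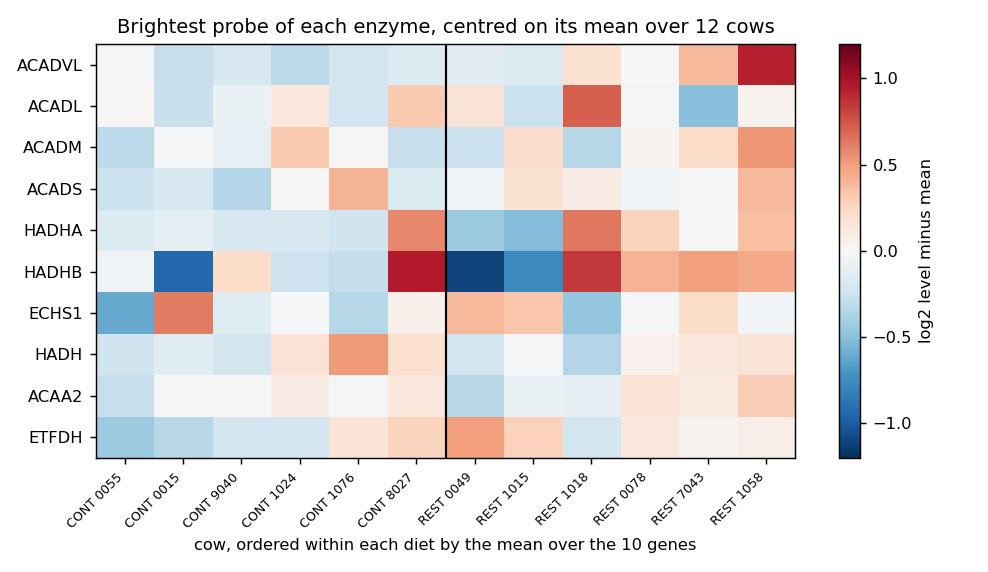
Log2 level of the brightest probe of each enzyme minus its mean over the 12 cows, in colour from blue (lower) to red (higher), with cows ordered within each diet by their mean over the 10 genes. REST cow 1058 is above the mean for 9 enzymes, led by ACADVL, and the HADHA and HADHB rows share their highest cow in each diet (CONT 8027 and REST 1018).

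The genes whose brightest probe was most like the mean of the 10 enzymes across cows were ranked among 8990 genes well above background, over 12 cows and after the diet means were taken out. They were KYAT3, a kynurenine aminotransferase (r = 0.923, rho = 0.923), COPG2, a coatomer subunit (r = 0.921, rho = 0.923), ATP6AP1, an accessory subunit of the vacuolar ATPase (r = 0.909, rho = 0.86), CTU2, a tRNA thiolation factor (r = 0.907, rho = 0.825), and NME7, of the nucleoside diphosphate kinase family (r = 0.907, rho = 0.951). These values are descriptive, as the highest of so many, from arrays that share slides and scaling.

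Genes before and around the spiral were read in the same fit. Of 9 genes of FA activation and carnitine entry, 6 were higher in REST, and 2 had an unadjusted p under 0.05, both higher (1.63% of all named genes), with a median log2 FC of 0.40. SLC25A20, the carnitine-acylcarnitine translocase of the inner membrane, ran from 1.24 through 1.42 to 1.93 in CONT and from 1.81 through 2.26 to 2.77 in REST. Its groups overlapped at their edges, and its log2 FC was 0.74 (SE 0.19, limma unadjusted p = 0.0023, adjusted p = 1; exact permutation p = 0.00433). CPT1B, a carnitine palmitoyltransferase of the outer membrane, ran from -0.11 through 0.26 to 0.92 in CONT and from -0.16 through 1.34 to 2.06 in REST. The REST cows enclosed the CONT range, with a log2 FC of 0.76 (SE 0.35, limma unadjusted p = 0.0465, adjusted p = 1; exact permutation p = 0.0714). ACSL4, CPT1A and CPT1C were not matched to a probe by accession and were not analysed here.

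Of 14 auxiliary enzymes and electron carriers of mitochondrial FA oxidation, 4 were higher in REST, beside 43.5% of all named genes, none had an unadjusted p under 0.05, beside 2.64%, and the median log2 FC was -0.12. In lists of 10 to 14 genes a count of 0 is close to that share, here and in the next lists. The largest difference was that of PCCA, a subunit of propionyl-CoA carboxylase (-0.34, SE 0.18, limma unadjusted p = 0.0836, adjusted p = 1; exact permutation p = 0.00433), with 0.45 to 1.25 in CONT and -0.21 to 0.48 in REST. The subunits of electron transfer flavoprotein, the partner of ETFDH, were singled out after their values were seen and gave 0.25 (SE 0.16) for ETFB and -0.075 (SE 0.14) for ETFA. Of 13 peroxisomal genes, 7 were higher in REST, none had an unadjusted p under 0.05, and the median was 0.0048, with ACOT8, an acyl-CoA thioesterase, at -0.26 (SE 0.20). A list of 10 genes of mitochondrial content had 5 higher and 5 lower, none with an unadjusted p under 0.05, a median of -0.0016, and NDUFS1, a complex I subunit, at -0.16 (SE 0.15).

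Of 13 regulators of FA oxidation 10 were higher in REST (median 0.20), and 1 had an unadjusted p under 0.05, beside 2.64% of all named genes. This was ESRRA, a nuclear receptor of mitochondrial genes, with 0.92 to 1.63 in CONT (median 1.31) and 1.66 to 2.02 in REST (median 1.89). Its groups did not overlap, as for 0.15% of all named genes, and its log2 FC was 0.55 (SE 0.15, limma unadjusted p = 0.00255, adjusted p = 1; exact permutation p = 0.00216). Of 7 fasting-responsive lipid genes 6 were higher (median 0.37), and 2 had an unadjusted p under 0.05 with higher means, beside 1.63% of all named genes. PDK4, the kinase that shuts pyruvate dehydrogenase, ran from 2.36 through 2.95 to 3.58 in CONT and from 4.08 through 4.91 to 7.0 in REST, without overlap (log2 FC 2.23, SE 0.46, limma unadjusted p = 0.00036, adjusted p = 1; exact permutation p = 0.00216). ANGPTL4, an inhibitor of lipoprotein lipase, ran from 0.87 through 2.22 to 4.20 in CONT and from 2.73 through 4.25 to 5.44 in REST (log2 FC 1.83, SE 0.59, limma unadjusted p = 0.0085, adjusted p = 1; exact permutation p = 0.0216). Neither these genes nor the lists were tested against the spiral enzymes.

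**Figure D5:**
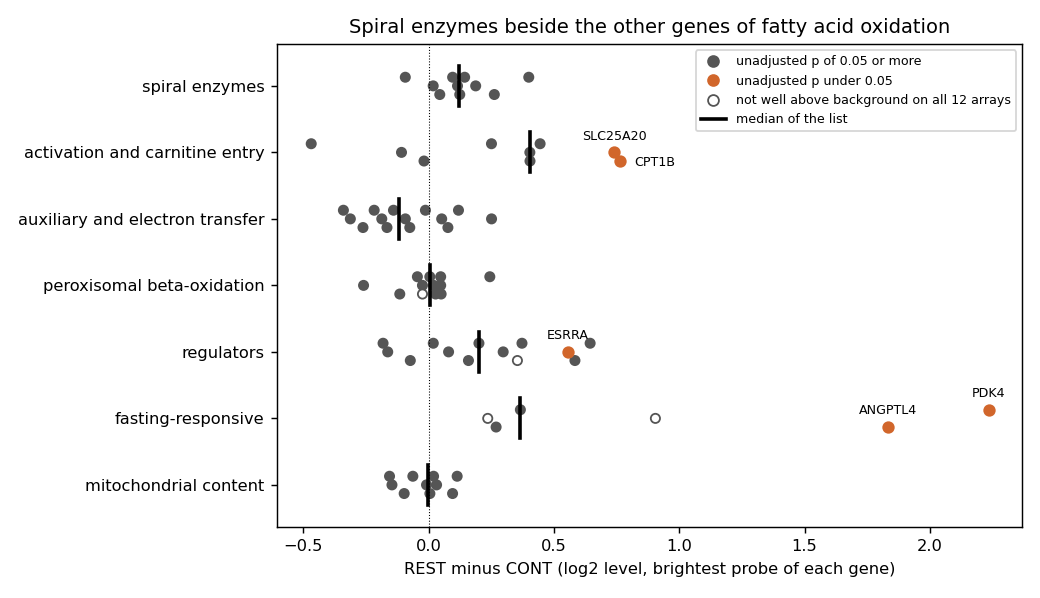
Log2 FC of REST against CONT for the brightest probe of each gene in the spiral and in 6 related lists, with the median of each list as a bar. Orange points have an unadjusted p under 0.05 in limma (adjusted p = 1 for all), and open points were not well above background on all 12 arrays. ABCD2 and UCP3, at background in every cow, are in the medians but not drawn. The spiral enzymes lie between -0.093 and 0.40. SLC25A20, CPT1B, ESRRA, ANGPTL4 and PDK4, named for their p, lie at 0.55 or more, as do UCP2, PPARG and PPARGC1A. In the entry, regulator and fasting-responsive lists, 3, 3 and 1 genes lie below 0.

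The tissue was checked with marker lists, and their part in the values of the spiral enzymes was not tested. All 8 epithelial and milk genes measured were clearly detected in every cow, and their summed level (in multiples of the 75th percentile) was 1560 to 4366 in CONT and 2101 to 5891 in REST. The 12 leukocyte genes summed to 21.39 to 29.21 in CONT and 29.3 to 38.13 in REST, without overlap, and to 11.11 to 17.25 and 9.264 to 22.64 once CD3D, the brightest, was left out. CD3D (log2 FC 0.60) and MS4A1 (with signal well over background in 0 CONT and 4 REST cows) had an unadjusted p under 0.05 (1.63% of all named genes were so and higher), while 7 of the 12 genes were higher and 5 lower, among them CD3E (-0.092), CD8A (-0.22) and PTPRC (-0.34). Of 8 fibroblast genes, LUM (-0.84), COL1A1 (-0.72) and COL1A2 (-0.65) did so with lower means in REST (1.01% of all named genes), and the list summed to 51.48 to 69.09 in CONT and 24.64 to 71.32 in REST. The 6 endothelial genes were all higher in REST, beside 43.5% of all named genes. VWF (0.79) had an unadjusted p under 0.05, beside 1.63% that were so and higher. The list summed to 4.949 to 18.85 in CONT and 11 to 24.99 in REST. The low end in CONT was cow 8027 alone, with the other CONT cows at 16.74 to 18.85. The adipocyte list, whose sum FABP4 and LPL carried, summed to 11.74 to 286.2 in CONT and 102.7 to 372.3 in REST. The striated muscle list summed to 4.558 to 8.99 and 4.802 to 7.09, and 0 genes of either list had an unadjusted p under 0.05. Summed levels of mitochondrial content genes were 164.4 to 204.7 in CONT and 164 to 207.1 in REST.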

How the data were processed

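The 12 arrays, 1 per cow, were processed by the authors with Agilent Feature Extraction (version 11.0.1.1), and the files deposited hold spot intensities that this software had corrected for background, with no normalization between arrays. The deposited matrix held the same intensities (largest difference 0). Controls were left out, outlier spots were set to missing, and log2 intensity minus that of the array's 75th percentile was averaged over the spots of a probe. REST and CONT were compared with limma 3.58.1 (R 4.3.3; lmFit and eBayes, two-sided, Benjamini-Hochberg over 43653 probes at 0.05), after a test on simulated data, and with exact permutation tests over the cows. P-values measure the spread between cows, and 6 arrays per diet limit the precision. Figures were drawn with matplotlib 3.10.9.

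The enzymes and the gene lists were chosen with earlier results of these data known. The genes named are the 10 enzymes, in each related list those with an unadjusted p under 0.05 or otherwise the largest change well above background, and the 5 genes most like the enzymes. ETFA, ETFB and the marker genes named were chosen after their values were seen. Alternatives were other scalings, normexp (offset 50), a filter on dim probes, outlier spots kept, slide as a block, an intensity trend, the deposited matrix, the mean over probes, Westfall-Young adjustment (100 splits), leaving out each cow and, chosen after seeing the data, each slide. The array annotation and the RefSeq table (assembly ARS-UCD2.0) belong to different genome builds, so no positions or sequences are given.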

Additional observations from a re-analysis of the deposited data

Results flagged for a closer look

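Of 56 sets of 6 cows (28 probes in 2 diets), 3 held a cow whose gap to the nearest of the others, divided by the range of the set, was above the critical value of 0.625, where 2.8 are expected by chance. All 3 were CONT cows. The brightest HADHA probe was highest in CONT cow 8027, on slide 3, at 2.29, with the others between 1.47 and 1.61, and the log2 FC without this cow was 0.22. The second ACADVL probe (A_73_P040291) was highest in CONT cow 0055, on slide 1, at 3.27, with the others between 2.80 and 2.95, and the log2 FC without it was 0.44. The brightest ACAA2 probe was lowest in the same cow at 2.90, with the others between 3.17 and 3.30, and the log2 FC without it was -0.035.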

How the results depend on the processing

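No probe was called in any of the 25 alternative settings, and the lowest Westfall-Young p was 0.22 over all probes and 1 over the probes of the enzymes. The log2 FC of ACADVL (0.21 to 0.57), ACADM (0.032 to 0.21), ACADS (0.072 to 0.36) and ETFDH (0.11 to 0.42) kept its sign throughout. The sign of ACADL turned with quantile normalization (-0.0045), the 50th percentile scale (-0.012), normexp (-0.075) and without slide 3 (-0.11). That of ACAA2 turned with the 50th percentile scale (-0.038), normexp (-0.012) and without slide 1 (-0.068). That of ECHS1 turned with slide as a block (-0.0066), without slide 1 (-0.088) and without slide 2 (-0.12). That of HADHA turned without slide 1 (-0.094), and that of HADHB without slide 1 (-0.091) and without slide 3 (-0.15). Leaving out 1 cow at a time gave -0.094 to 0.15 for ACADL, -0.021 to 0.22 for HADHA, -0.062 to 0.35 for HADHB, -0.15 to 0.00072 for HADH and -0.039 to 0.086 for ACAA2. The number of enzymes higher in REST was 9, 5 without slide 1, and 6 to 10 with 1 cow left out. The number with an unadjusted p under 0.05 was 0, but 1, ACADVL, with the percentile taken over probes well above background, normexp, the dim probe filter, the intensity trend and the mean over probes, 1, ECHS1, without slide 3, and 0 to 1 with 1 cow left out (1 without REST cow 0049 or 1015). The cause of these changes was not tested. The median log2 FC over all probes moved from -0.023 to -0.079 with the 50th percentile scale and to 0.048 with slide as a block. The comparison was unpaired, since each cow received 1 diet and the labels tie no CONT cow to a REST cow. Slides held the diets unequally, each slide was scanned at its own time, and dim probes such as those of ACADL limit what the arrays can show.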
